A study of Mus musculus with 4 samples.

Results

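The 3p arms of the let-7 hairpins were followed in small RNA libraries of mouse cortical neurons. The members were chosen by name, with earlier results of these data known. They comprise mmu-let-7a-2-3p, mmu-let-7b-3p, mmu-let-7c-1-3p, mmu-let-7d-3p, mmu-let-7e-3p, mmu-let-7f-1-3p, mmu-let-7f-2-3p, mmu-let-7g-3p, mmu-let-7i-3p and mmu-miR-98-3p (written below without the species prefix), which are 10 of the 1966 mature miRNA listed. All neurons came from the cortex of E16.5 embryos and grew for 5 days in vitro without treatment. The WT libraries (n = 2) came from embryos without the transgenes, and the TgAD libraries (n = 2) from embryos of the APP/PS1 strain (B6C3-Tg APPswe, PSEN1dE9 85Dbo/J). This strain has 2 transgenes, a mouse/human hybrid of APP with the Swedish changes and a human PS1 without exon 9. Their expression comes from parts of the prion gene promoter and is mostly neuronal in the brain. The neurons of each embryo were cultured apart and genotyped afterwards, so each library is taken as a separate embryo. The comparison addresses which miRNA differ between TgAD and WT neurons.

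A miRNA hairpin is cut by Dicer into a duplex, and 1 strand of it, the guide, is loaded into an Argonaute protein. In let-7 hairpins the guide comes from the 5p arm. All let-7 guides share a seed, the stretch of bases by which a miRNA finds its targets, and let-7 guides build up as neural progenitors mature into neurons. The 3p arm is the passenger strand, which is mostly released and degraded. It can also be loaded and act on targets through its own seed. The level of a 3p arm therefore depends on how much hairpin is made and on how much of the passenger strand is kept, and the ratio of 3p to 5p reads separates these quantities in part.

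The mature sequences of all 10 members were found in the RefSeq table for GRCm38.p6. They are shown because they tell the arms apart and show which of them have the same seed. Each is written 5′ to 3′ with the seed (bases 2 to 8) in capitals, and the 5p arm of let-7d is given last for comparison.
let-7a-2-3p: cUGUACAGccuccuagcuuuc
let-7b-3p: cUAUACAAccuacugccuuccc
let-7c-1-3p: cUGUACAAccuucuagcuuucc
let-7d-3p: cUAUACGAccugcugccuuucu
let-7e-3p: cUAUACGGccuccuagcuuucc
let-7f-1-3p: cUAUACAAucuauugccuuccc
let-7f-2-3p: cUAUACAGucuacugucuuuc
let-7g-3p: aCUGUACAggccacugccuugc
let-7i-3p: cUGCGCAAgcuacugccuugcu
miR-98-3p: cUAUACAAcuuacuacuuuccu
let-7d-5p: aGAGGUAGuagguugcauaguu

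The 3p arms do not share the common seed of the 5p arms. The seed UAUACAA is found in let-7b-3p, let-7f-1-3p and miR-98-3p, and among all mature mouse miRNA with a sequence only in 2 others, let-7a-1-3p and let-7c-2-3p. The other 7 members each have a seed that no other listed miRNA with a sequence has, so the 10 members have 8 different seeds. Each member's exact sequence lies in 1 hairpin. The closest neighbors among the members were let-7b-3p and let-7f-1-3p, which differ at 2 of 22 positions, and let-7a-2-3p, which differs from let-7c-1-3p and from let-7e-3p at 2 of 21 positions. GC content ranged from 31.8% in miR-98-3p to 59.1% in let-7g-3p and let-7i-3p.

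In GENCODE M21 (GRCm38), 2 of the hairpins lie together on the X chromosome. Mirlet7f-2 (chrX:151912346-151912428) and Mir98 (chrX:151913214-151913321) are 785 bases apart on the plus strand, within introns of Huwe1, a ubiquitin ligase gene. Mirlet7d (chr13:48536012-48536114) and Mirlet7f-1 (chr13:48537829-48537917) are 1714 bases apart on the minus strand, with Mirlet7a-1 261 bases beyond Mirlet7f-1, and all 3 lie within an exon of the long noncoding RNA 6720427I07Rik. Mirlet7b (chr15:85707319-85707403, plus strand) lies 621 bases from Mirlet7c-2 in an exon of the noncoding transcript Lncppara. The other members come from hairpins with no other member near them. Mirlet7c-1 (chr16:77599657-77599750) lies in introns of Mir99ahg, Mirlet7a-2 (chr9:41536716-41536811) in introns of 3110039I08Rik, Mirlet7e (chr17:17830352-17830444) in introns of Spaca6, and Mirlet7g (chr9:106178840-106178927) in introns of Wdr82, all on the plus strand. Mirlet7i (chr10:122985640-122985724, minus strand) lies in an intron of 1 transcript of D630033A02Rik and in an exon of the other.

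The libraries held 2070204 and 2752599 reads on miRNA in WT and 2758525 and 4811010 in TgAD, of which the 10 members took between 0.116% and 0.159%. A count of 3 reads, taken as the floor, stood for 0.746 to 1.28 CPM (counts scaled to 1e6 reads, with library sizes adjusted by TMM), and each member lay above it in every library. Of 5 neuronal marker miRNA, miR-9-5p was at 0 in all libraries and miR-124-3p between 0.426 and 2.55 CPM, and the summed level of the list was 21121 and 35034 CPM in WT and 62005 and 86098 CPM in TgAD. Most of this sum was miR-128-3p, whereas miR-138-5p was at 1654 and 1225 CPM in WT and at 1214 and 651 CPM in TgAD, and miR-218-5p overlapped between genotypes. The mature sequence of miR-9-5p comes from 3 hairpins and that of miR-128-3p from 2. The 3 oligodendrocyte markers were at 0. The 5 blood markers summed to 1320 and 1341 CPM in WT and to 660 and 971 CPM in TgAD, nearly all of it miR-451a, with miR-142a-3p at 0. miR-142a-5p went the other way, with 8.94 and 8.59 CPM in WT and 10.9 and 12.7 CPM in TgAD. So did miR-223-3p near the floor, with 1.28 and 1.37 CPM against 2.92 and 1.99 CPM, whereas miR-144-3p was at or below the floor in every library. The 3 glial markers summed to 18067 and 23314 CPM against 14788 and 15987 CPM, nearly all of it miR-21a-5p, while miR-146a-5p and miR-155-5p overlapped between genotypes. The 4 vascular markers summed to 718 and 901 CPM against 756 and 827 CPM, with both arms of miR-126a at 0. The part of these differences in the results was not tested, and fewer cells of a type and less RNA per cell cannot be told apart in these libraries.

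A second deposited table, of normalized values for 674 miRNA, goes against the labels of the count tables. Whole reads could be recovered for 100% of its values, within a relative tolerance of 1e-04 that large counts pass whatever their value. Its column named for WT replicate 1 held the counts of the library labelled TgAD replicate 1 for 674 of 674 miRNA. The column named for WT replicate 2 held those of WT replicate 1, and the column named for TgAD replicate 1 those of TgAD replicate 2. The column named for TgAD replicate 2 equalled no count table, and no column held the counts of WT replicate 2. The library labelled TgAD replicate 1 thus appears under both genotypes. The results below follow the labels of the count tables. The calls of levels and ratios are also given without this library and with the columns of the normalized table taken by name. A fit without 1 library leaves 1 library in a genotype and holds no spread within it. Its adjusted p and calls are therefore not comparable with those of all 4 libraries.

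Across the family, the 3p arms did not move one way. In TgAD neurons 2 of the 10 rose (let-7d-3p and let-7b-3p), 2 fell (let-7f-2-3p and miR-98-3p), and 6 did not pass the test (edgeR's quasi-likelihood test with a log2 fold change over 0.6 and a Benjamini-Hochberg adjusted p under 0.1). Of all 496 miRNA tested, 15.7% were higher and 17.3% lower at these cutoffs, and of the 247 tested miRNA named as 3p arms 32.4% were called in either direction, so the share of called members lies near the background. At stricter cutoffs (1 for the log2 fold change and 0.01 for the adjusted p) none of the members passed, against 4.44% of all tested miRNA. All 10 members passed the filter on low counts. The median log2 fold change was 0.04 over the members, 0.03 over all tested miRNA and 0.13 over the tested 3p arms.

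**Figure D1:**
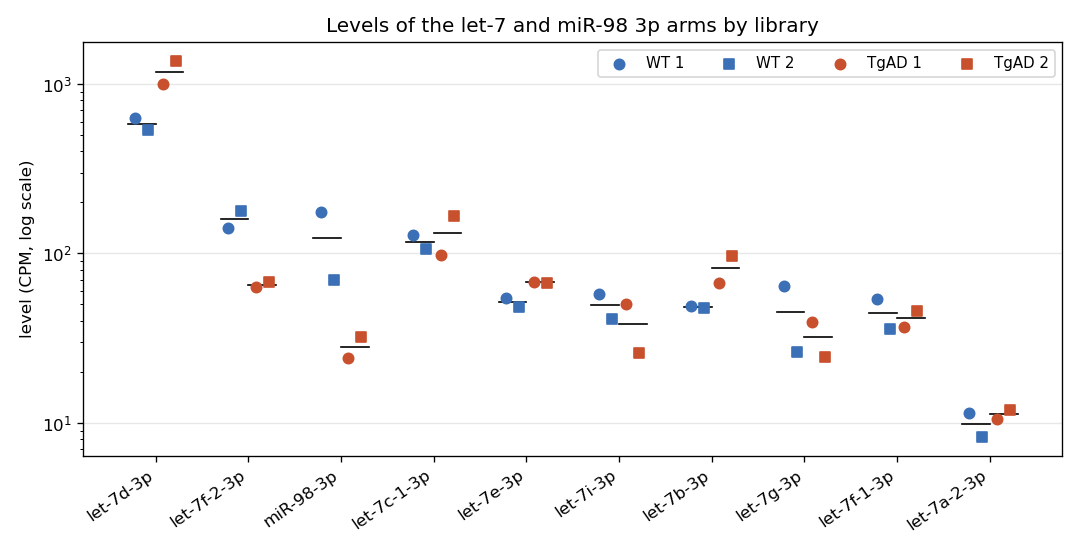
Level of each of the 10 members in CPM (log axis) in the WT libraries (blue) and the TgAD libraries (red), with circles for replicate 1, squares for replicate 2 and a line at the mean of each genotype. Both TgAD libraries lie above both WT libraries for let-7d-3p, let-7b-3p and let-7e-3p, and below both for let-7f-2-3p and miR-98-3p.

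let-7d-3p was the most abundant member in both genotypes, and its level was 2.03-fold higher in TgAD neurons. Its counts were 1481 and 1563 in WT and 2756 and 5483 in TgAD, or 630 and 537 CPM in WT and 1004 and 1363 CPM in TgAD. Both TgAD libraries were above both WT libraries. The mean level in TgAD was 1184 ± 254 CPM against 584 ± 66.1 CPM in WT (SD, n = 2 each), with a log2 fold change of 1.02 ± 0.23 (SE) and an adjusted p of 0.0276 by edgeR's quasi-likelihood test. Without TgAD replicate 1 the log2 fold change was 1.14 (adjusted p = 0.0104, same test), and with the normalized table by name it was 0.97 (adjusted p = 0.467, same test), which does not pass. let-7d-3p made up 46.1% and 48.9% of the reads of the 10 members in WT and 68.7% and 71.7% in TgAD.

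let-7b-3p, a member with the seed UAUACAA, had 115 and 139 reads in WT and 183 and 387 in TgAD. In CPM these were 48.9 and 47.7 in WT and 66.7 and 96.2 in TgAD. The WT libraries were nearly alike, both TgAD libraries were higher, and TgAD replicate 2 was the highest. The mean rose from 48.3 ± 0.853 to 81.5 ± 20.9 CPM (SD, n = 2 each), and the log2 fold change was 0.76 ± 0.27 (SE; adjusted p = 0.0859, edgeR's quasi-likelihood test). The call did not hold in several settings. Leaving out WT replicate 1, WT replicate 2 or TgAD replicate 2 ended it, with log2 fold changes from 0.47 to 0.77, whereas without TgAD replicate 1 the value was 0.91 (adjusted p = 0.0577, same test). With total counts as library sizes the log2 fold change was 0.47 (adjusted p = 0.314, same test), and with the normalized table by name it was 0.92 (adjusted p = 0.486, same test).

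Both members from the Huwe1 introns on the X chromosome fell. let-7f-2-3p had 330 and 520 reads in WT and 173 and 271 in TgAD, or 140 and 179 CPM in WT and 63.0 and 67.4 CPM in TgAD. Both TgAD libraries were far below both WT libraries and close to each other. Its mean fell from 160 ± 27.0 to 65.2 ± 3.07 CPM (SD, n = 2 each), and the log2 fold change was -1.29 ± 0.23 (SE; adjusted p = 0.0157, edgeR's quasi-likelihood test). Without TgAD replicate 1 the value was -1.33 (adjusted p = 0.0185, same test), and with the normalized table by name it was -1.05 (adjusted p = 0.4998, same test).

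miR-98-3p, also with the seed UAUACAA, had the largest change among the members when all 4 libraries were used. It had 415 and 202 reads in WT and 66 and 129 in TgAD, or 177 and 69.4 CPM in WT and 24.1 and 32.1 CPM in TgAD. The WT libraries differed widely from each other, and both were above the TgAD libraries. The mean fell from 123 ± 75.8 to 28.1 ± 5.67 CPM (SD, n = 2 each), and the log2 fold change was -2.12 ± 0.47 (SE; adjusted p = 0.0276, edgeR's quasi-likelihood test). WT replicate 1 carried much of the size, and without it the log2 fold change was -1.30 (adjusted p = 0.0237, same test), a smaller change than that of let-7f-2-3p in the same setting (-1.45). Without TgAD replicate 1 it was -2.02 (adjusted p = 0.0453, same test), and with the normalized table by name it was -1.68 (adjusted p = 0.443, same test).

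The other 6 members did not pass the cutoffs. let-7e-3p came closest by adjusted p, with 54.9 and 48.4 CPM in WT against 68.2 and 67.1 CPM in TgAD. Its libraries did not overlap, but the log2 fold change was 0.39 ± 0.23 (SE; adjusted p = 0.281, edgeR's quasi-likelihood test). With let-7e-3p, 5 of the 10 members had libraries that did not overlap between genotypes, against 63.1% of all tested miRNA.

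For the remaining 5 members the libraries overlapped. let-7c-1-3p had 129 and 106 CPM in WT and 97.7 and 166 CPM in TgAD, with both TgAD libraries outside the WT range on opposite sides (log2 fold change 0.18, adjusted p = 0.704, edgeR's quasi-likelihood test). let-7g-3p had 63.8 and 26.1 CPM in WT and 39.4 and 24.6 CPM in TgAD, and let-7i-3p had 57.5 and 41.2 CPM against 50.3 and 25.9 CPM. Their log2 fold changes were -0.49 and -0.38. let-7i-3p passed only when TgAD replicate 1 was left out (log2 fold change -1.01, adjusted p = 0.0882, same test). let-7f-1-3p, from the same noncoding RNA as let-7d-3p, had 53.6 and 35.7 CPM in WT and 36.8 and 46.0 CPM in TgAD, a log2 fold change of -0.10 ± 0.30 (SE). let-7a-2-3p was the least abundant member, with 24 to 48 reads per library and a log2 fold change of 0.20 ± 0.34 (SE).

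The order of the levels differed between the genotypes. In WT, let-7d-3p stood above all others, followed by let-7f-2-3p, miR-98-3p and let-7c-1-3p, whose ranges overlapped from neighbor to neighbor. Then came let-7e-3p, let-7i-3p, let-7b-3p, let-7g-3p and let-7f-1-3p, between 44.7 and 51.7 CPM on average and overlapping from neighbor to neighbor, and let-7a-2-3p was lowest at 9.87 CPM. In TgAD, let-7d-3p was followed by let-7c-1-3p (132 CPM), then by let-7b-3p, let-7e-3p and let-7f-2-3p, which overlapped from neighbor to neighbor. let-7f-1-3p, let-7i-3p, let-7g-3p and miR-98-3p also overlapped in this way, and let-7a-2-3p was again lowest at 11.3 CPM. By these means miR-98-3p was the third in WT and the ninth in TgAD, but single libraries placed it differently.

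Members with the same seed did not share a direction. Of the 3 with UAUACAA, let-7b-3p rose, miR-98-3p fell and let-7f-1-3p had a log2 fold change of -0.10. The arms let-7f-1-3p and let-7f-2-3p belong to 1 guide, let-7f-5p, but come from different chromosomes. let-7f-2-3p took 72.4% (95% Wilson interval 68.1 to 76.3) and 83.3% (80.2 to 86.1) of the reads of both arms in WT, and 63.1% (57.3 to 68.6) and 59.4% (54.9 to 63.8) in TgAD. Both shares in TgAD were below those in WT, although the intervals of both first replicates touch. No model was fitted to this share, an exact permutation test of 2 libraries against 2 cannot give a p below 0.333, and the intervals cover counting error only.

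The 5p arms of the same hairpins were compared next, as the 3p arm alone does not tell a change of the hairpin from a change of the strand that is kept. Of the 9 guides only miR-98-5p passed the cutoffs. It was at 3069 and 2067 CPM in WT and at 727 and 820 CPM in TgAD, and its log2 fold change was -1.73 ± 0.25 (SE; adjusted p = 0.00934, edgeR's quasi-likelihood test). Both arms of miR-98 thus fell. Without TgAD replicate 1 the log2 fold change of miR-98-5p was -1.73 (adjusted p = 0.0101, same test), and with the normalized table by name it was -1.58 (adjusted p = 0.443, same test). let-7d-5p was at 6115 and 6127 CPM in WT and at 4080 and 4063 CPM in TgAD, with no overlap and a log2 fold change of -0.59 ± 0.18 (SE; adjusted p = 0.0602, same test), which is just inside the cutoff of 0.6. It passed when TgAD replicate 1 was left out (log2 fold change -0.68, adjusted p = 0.0734, same test). The other guides had log2 fold changes from -0.46 (let-7f-5p) to 0.08 (let-7c-5p). The median over the 9 guides was -0.24.

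**Figure D2:**
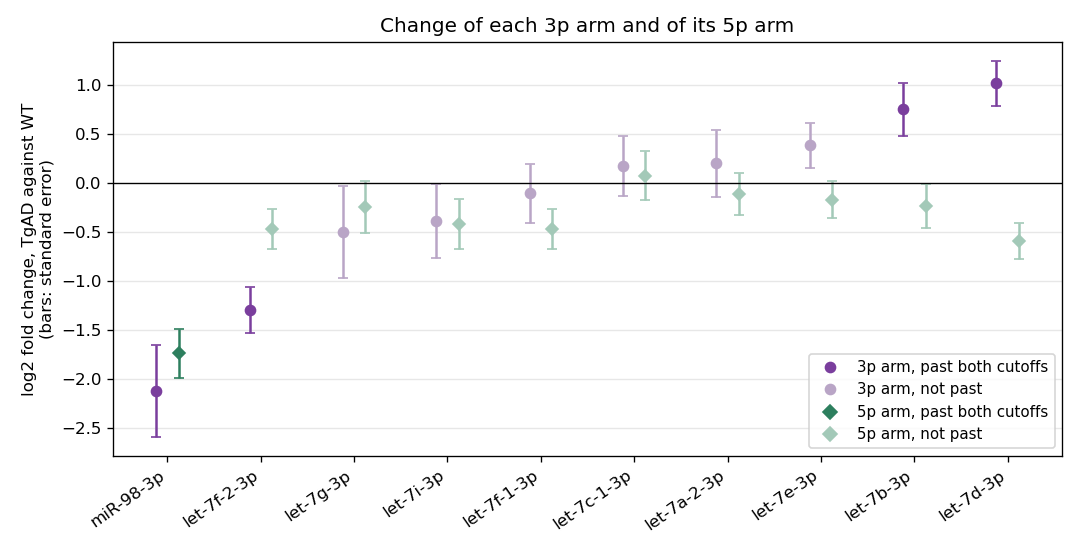
Log2 fold change between TgAD and WT (bars, SE) of each 3p arm (circles) and of its 5p arm (diamonds), with dark symbols for those past both cutoffs. The arms of miR-98 both lie far below 0, whereas the arms of let-7d lie at 1.02 and -0.59. The 5p arm of let-7f appears beside both let-7f-1-3p and let-7f-2-3p, its partners.

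Within a library, the ratio of 3p to 5p reads does not depend on the size of the library. It was tested with limma over 160 pairs of arms, of which 22.5% were higher and 14.4% lower in TgAD. Of the 10 members, 2 had a higher ratio (let-7d and let-7b) and 1 a lower ratio (let-7f-2). The median log2 difference was 0.17 over the members and 0.19 over all pairs.

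The let-7d hairpin had 10.3 and 8.76 reads of the 3p arm per 100 reads of the 5p arm in WT, and 24.6 and 33.6 in TgAD. Both TgAD libraries were more than 2-fold above both WT libraries. The log2 difference was 1.60 ± 0.29 (SE), a 3.02-fold higher ratio (adjusted p = 0.0175, limma with Benjamini-Hochberg adjustment). Without TgAD replicate 1, which leaves 1 TgAD library, it was 1.82. With the normalized table by name it was 1.52 (adjusted p = 0.465, limma). Among the alternatives with 2 libraries per genotype, the call was lost only there. None of the alternatives for the ratio corrected for GC content, which is 50.0% in let-7d-3p and 40.9% in let-7d-5p. The part of GC content in the ratios was not tested.

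let-7b-3p had 0.190 and 0.240 reads per 100 reads of let-7b-5p in WT and 0.345 and 0.490 in TgAD, again without overlap. The log2 difference was 0.94 ± 0.34 (SE; adjusted p = 0.0840, limma), and without TgAD replicate 1 it was 1.20 (adjusted p = 0.0390, limma). let-7f-2-3p had 6.42 and 6.97 reads per 100 reads of let-7f-5p in WT and 4.06 and 3.56 in TgAD, which do not overlap either. The log2 difference was -0.81 ± 0.29 (SE; adjusted p = 0.0849, limma), and -0.91 without TgAD replicate 1 (adjusted p = 0.0910, limma). The sequence of let-7f-5p lies in 2 hairpins, so this ratio can also depend on how much Mirlet7f-1 is made. It depends too on how reads that fit both hairpins were counted, which is not given. Leaving out WT replicate 1, WT replicate 2 or TgAD replicate 2 ended both calls, with log2 differences from 0.69 to 1.11 for let-7b-3p and from -0.87 to -0.72 for let-7f-2-3p. Both calls were also lost with the normalized table by name, at 0.98 (adjusted p = 0.465, limma) and -0.96 (adjusted p = 0.501, limma), and without a filter on the arms. That of let-7f-2-3p was lost without a trend of the spread too (adjusted p = 0.101, limma).

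**Figure D3:**
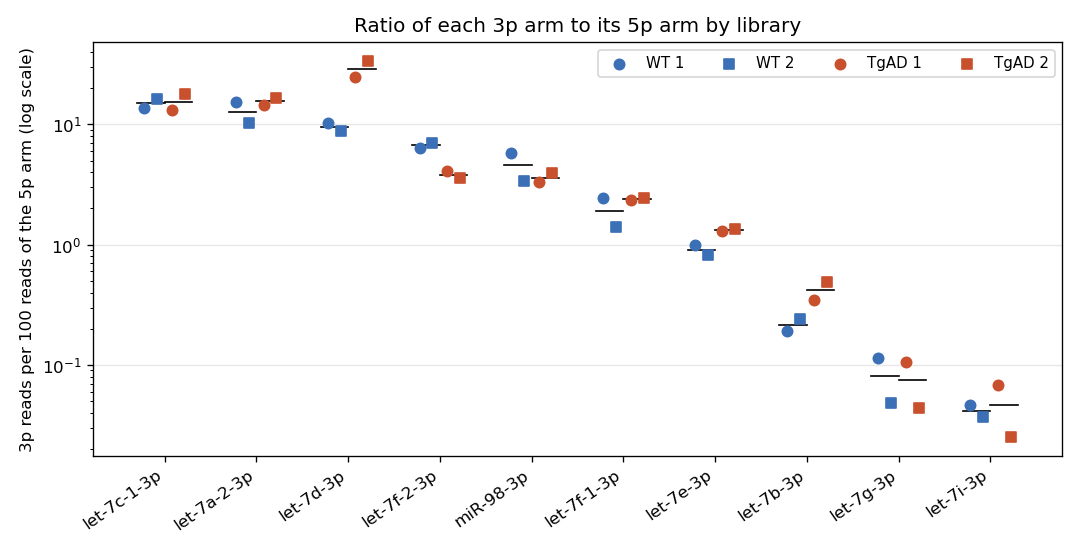
Reads of each 3p arm per 100 reads of its 5p arm (log axis) in the WT libraries (blue) and the TgAD libraries (red), with circles for replicate 1, squares for replicate 2 and lines at the means. The ratio of let-7d rises from 8.76 to 10.3 in WT to 24.6 to 33.6 in TgAD, while the miR-98 libraries overlap.

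For miR-98 the ratio was 5.76 and 3.36 in WT and 3.31 and 3.91 in TgAD. Only WT replicate 1 stood apart, and the log2 difference was -0.28 ± 0.37 (SE; adjusted p = 0.603, limma), so the fall of both arms was not shown to be unequal. let-7e-3p had 0.986 and 0.818 reads per 100 in WT and 1.31 and 1.34 in TgAD, with a log2 difference of 0.56 ± 0.31 (SE; adjusted p = 0.212, limma). The ratios of the other members overlapped between genotypes. They ranged widely between hairpins, from 0.0252 to 0.114 reads per 100 in let-7i and let-7g to 10.2 to 17.8 in let-7a-2 and let-7c-1. The last 2 rest on 5p arms whose sequence lies in 2 hairpins, and let-7a-5p had only 177 to 290 reads per library. How reads that fit both hairpins were counted is not given, so the size of these ratios is uncertain.

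GC content moved with the changes. Across the 441 tested miRNA with a sequence, the log2 fold change had a Pearson r of 0.35 and a Spearman rho of 0.42 with GC content, and across the 10 members r was 0.58 and rho 0.31. These values are descriptions across miRNA of the same 4 libraries and carry no test. let-7f-2-3p (38.1% GC) and miR-98-3p (31.8%), which fell, are the members with the lowest GC content, and let-7d-3p and let-7b-3p, which rose, have 50.0%. The members with the highest GC content, let-7g-3p and let-7i-3p (59.1%), lie outside this pattern, with log2 fold changes of -0.49 and -0.38 before and -0.75 and -0.66 after the correction described next, none of them past the cutoffs. After each library was corrected for GC content, let-7d-3p had a log2 fold change of 0.79 (adjusted p = 0.0396, edgeR's quasi-likelihood test), let-7f-2-3p of -0.70 (adjusted p = 0.0797, same test) and miR-98-3p of -1.25 (adjusted p = 0.0675, same test). All 3 kept their call. let-7b-3p had 0.53 (adjusted p = 0.203, same test) and lost its call.

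**Figure D4:**
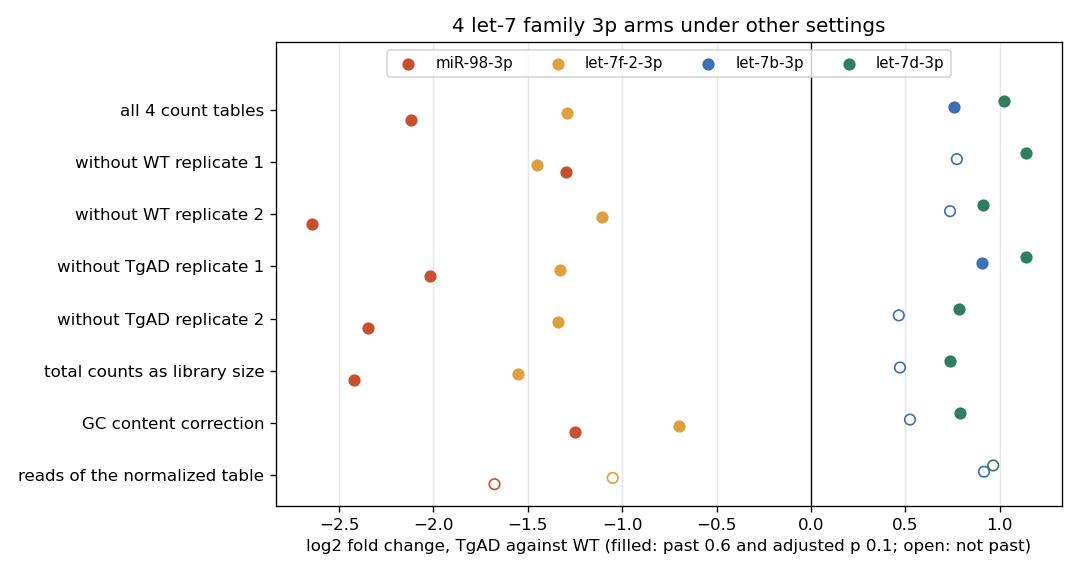
Log2 fold change of the 4 called members under 8 settings, with filled circles where both cutoffs were passed and open circles where they were not. let-7d-3p, let-7f-2-3p and miR-98-3p keep their call in all settings shown except the reads of the normalized table, and let-7b-3p keeps it only with all 4 count tables and without TgAD replicate 1.

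With the columns of the normalized table taken by name, edgeR called none of the 480 tested miRNA, with 54 at an unadjusted p under 0.05, and DESeq2 called 4, none of them a member. The 4 called members kept their direction there, with log2 fold changes of 0.97 (let-7d-3p), 0.92 (let-7b-3p), -1.05 (let-7f-2-3p) and -1.68 (miR-98-3p). This is not independent support. The columns named for WT replicate 2 and TgAD replicate 1 hold the reads of count tables with the same genotype. For both members that fell the columns overlapped. miR-98-3p had normalized values of 57.6 and 435 in the columns named for WT and 76.5 and 74.0 in those named for TgAD, so that only 1 WT column was high. let-7f-2-3p had 151 and 346 against 161 and 72.2. The columns of let-7d-3p and let-7b-3p did not overlap. limma called none of the 152 ratios tested there, with 13 at an unadjusted p under 0.05. The ratio of let-7d was 24.6 and 10.3 reads per 100 reads of let-7d-5p in the columns named for WT and 33.6 and 62.4 in those named for TgAD.

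Other let-7 entries, except let-7j, gave few reads. let-7a-1-3p and let-7c-2-3p have the same 22 bases and come from 2 hairpins. They had 1 to 6 reads per library, too few for a test. How reads that fit both hairpins were counted is not given, so the level of these 2 arms is uncertain. let-7k had 11 reads in WT replicate 1 and at most 1 elsewhere. Only let-7j, with 82 to 145 reads per library, was tested (log2 fold change -0.43, adjusted p = 0.272, edgeR's quasi-likelihood test). let-7f-2-3p differs from the shared sequence of let-7a-1-3p and let-7c-2-3p at 1 of 21 positions.

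The 3p arms of the miR-99, miR-100 and miR-125 hairpins were also followed, since these hairpins are made from common transcripts with let-7 hairpins. None of the 6 tested passed the cutoffs. Their log2 fold changes ranged from -1.20 (miR-99a-3p, adjusted p = 0.135) to 0.48 (miR-99b-3p, adjusted p = 0.107, edgeR's quasi-likelihood test). miR-99a-3p, whose hairpin shares Mir99ahg with Mirlet7c-1, had 103 CPM in WT replicate 1 and 25.9 to 35.4 CPM in the other libraries, so only 1 library stood apart.

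The miRNA whose levels over the 4 libraries were most like those of the called members were found among 470 tested miRNA by the Euclidean distance of centered log2 CPM. For let-7d-3p they were miR-671-3p (distance 0.0970) and miR-3059-5p (0.114), and for let-7b-3p miR-323-3p (0.105) and miR-153-5p (0.116). For let-7f-2-3p they were miR-542-3p (0.121) and miR-195a-5p (0.181). miR-98-3p had no pattern as close, with miR-3535 at 0.319 and miR-551b-3p at 0.403.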

How the data were processed

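Small RNA of cultured cortical neurons was sequenced from 2 WT and 2 TgAD embryos, which the labels place at embryonic day 16.5 and the methods at a slightly earlier stage. The authors mapped the reads to GRCm38 with Bowtie2 without mismatch, counted them on miRBase 22.1 miRNA with HTSeq-count and deposited whole-number counts per miRNA, 1 table per library. Versions of these tools and the treatment of reads that fit several places are not given in the sources used here. The authors also deposited a normalized signal, in which each library's counts are divided by its size factor. From it whole reads were recovered for 100% of values, within a relative tolerance of 1e-04. This table was used for the check of labels and as an alternative.

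Groups were taken from the sample labels. Counts were scaled by TMM and tested with edgeR 4.0.16 in R 4.3.3 (filterByExpr, quasi-likelihood test, genotype as the only factor, 496 miRNA), with Benjamini-Hochberg adjustment over all of them. The standard error is the size of the log2 fold change divided by the square root of F. Arm ratios, log2 of (3p reads + 0.5)/(5p reads + 0.5), were tested with limma 3.58.1 (a trend of the spread on the reads of the smaller arm) over 160 pairs with at least 40 reads per arm over the 4 libraries. The p-values rest on the spread between the 2 libraries of each genotype, moderated over all tested miRNA or pairs. Where a library was left out, this spread came from 1 genotype only.

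The alternatives were RLE scaling, total counts, no filter, at least 10 reads in every library, DESeq2 1.42.0, the robust option, a block for the replicate number, a GC correction (local regression, span 0.75), the reads of the normalized table, and for ratios 2 reads added to each arm, other filters and edgeR's diffSpliceDGE. Each library was left out in turn, and the lone library was then assumed to vary like the others. DESeq2 and a ratio fit on the normalized table's reads and a ratio fit without a trend of the spread were added after seeing the data.

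The named miRNA were the 10 members, their 5p arms, other let-7 entries, 3p arms of miRNA that share transcripts with let-7, marker lists and, for called members, the 2 closest patterns. Members and lists were chosen with earlier results of these data known. The procedure was tested on simulated data. Sequences were from RefSeq (1675 of 1966 listed miRNA matched), and figures used matplotlib 3.10.9 in Python 3.11.15.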

Additional observations from a re-analysis of the deposited data

Results flagged for a closer look

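The column of the normalized table named for TgAD replicate 2 matches no count table and enters none of the comparisons of the count tables. It gave 2411 reads of let-7d-3p and 3864 of let-7d-5p, or 62.4 reads of the 3p arm per 100 of the 5p arm. This ratio lay above that of either WT library (10.3 and 8.76), and also above that of either TgAD library (24.6 and 33.6). The value was flagged by a rule that asked for a ratio above both WT libraries, so that direction was set by the rule. Among the fits, the reads of this column enter only those with the normalized table taken by name. The genotype of these reads rests on the name of a column in a table whose names go against the count tables.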

How the results depend on the processing

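The number of members lower in TgAD (2) was 0 with the reads of the normalized table, by edgeR and by DESeq2, and from 2 to 3 when 1 library was left out. The number higher (2) was 1 with total counts, without a filter, with DESeq2 and with the GC correction, 0 with the normalized table by both tools, and 1 to 2 with 1 library left out. The number of ratios that differ (3) was 1 without a filter on the arms, 0 with the ratios of the normalized table, 2 without a trend of the spread and 1 to 3 with 1 library left out. Of the called members, let-7d-3p, let-7f-2-3p and miR-98-3p kept their call in each alternative that used all 4 count tables, which refit the same reads. They lost it with the normalized table. let-7b-3p lost its call with total counts, without a filter, with DESeq2, with the GC correction and with the normalized table. Without 1 library, log2 fold changes were 0.79 to 1.14, -1.45 to -1.11, -2.65 to -1.30 and 0.47 to 0.91 for these 4 in turn.

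Among the levels, only members that were not called changed sign. Among the ratios, none of the 3 called did. let-7a-2-3p was at -0.075 with total counts, -0.12 with the GC correction, -0.20 (edgeR) and -0.23 (DESeq2) with the normalized table, and -0.026 to 0.45 without 1 library. let-7c-1-3p was at -0.12 with total counts and -0.26 to 0.42 without 1 library. let-7f-1-3p was at 0.33 with the GC correction, 0.17 and 0.14 with the normalized table (edgeR, DESeq2), and -0.37 to 0.22 without 1 library. let-7g-3p was at 0.39 and 0.36 with that table and -1.005 to 0.28 without 1 library, and let-7i-3p at -1.01 to 0.034 without 1 library. Log2 ratio differences without 1 library were -0.18 to 0.25 (let-7c-1), -0.028 to 0.78 (let-7f-1), -0.76 to 0.52 (let-7g), -0.72 to 0.72 (let-7i) and -0.67 to 0.11 (miR-98), and let-7i was at 0.030 with diffSpliceDGE. With the normalized table the ratio differences of let-7g and miR-98 were 0.23 and 0.24. The cause of these shifts was not tested.

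The replicate numbers are shared only as numbers. The deviations of same-numbered libraries had a correlation of 0.22 over 496 miRNA, and with a replicate block the counts stayed at 2 lower, 2 higher and 3 ratios, while the calls over all miRNA went from 164 to 188. Total counts moved the median of all tested miRNA by -0.27 and the share of calls that were lower from 52.4% to 73.9%. Over all miRNA, the calls numbered 123 to 180 without 1 library, 137 with the GC correction and 0 (edgeR) or 4 (DESeq2) with the normalized table. For the ratios, diffSpliceDGE called 28 pairs against 59. With 2 libraries per genotype and as few as 24 reads for let-7a-2-3p, small differences were not detectable.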

Other observations

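In the same column, whose 1926952 recovered reads equal no count table, the other members had these levels, scaled to 1e6 reads of the column. let-7c-1-3p stood at 112, let-7b-3p at 84.1, let-7g-3p at 76.8, let-7e-3p at 68.5 and let-7f-1-3p at 38.4. let-7i-3p and miR-98-3p stood at 21.3 each, let-7f-2-3p at 20.8 and let-7a-2-3p at 4.67. Here let-7f-2-3p, with 40 reads, was less abundant than let-7f-1-3p, with 74 reads, whereas it was the more abundant of the pair in each of the 4 count tables. Its ratio was 1.91 reads per 100 reads of let-7f-5p, below the lowest of the count tables, 3.56, and the ratio of miR-98-3p was 6.78, above their highest, 5.76. The ratio was above all count tables also for let-7g (0.383 against at most 0.114), let-7e (2.28), let-7f-1 (3.53), let-7c-1 (19.8) and let-7b (0.520), and it lay within their range for let-7a-2 and let-7i. No test was made on this single library.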
